A study of Arabidopsis thaliana with 30 samples.

Results

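Transcripts of the mitochondrial genome and of its copy on chromosome 2 were followed in Arabidopsis thaliana seedlings given antimycin A. The members are all listed gene IDs that start with ATMG, AT2G076, AT2G077 or AT2G078, and they number 94 of the 6297 genes listed in any of 5 tables. Of these, 58 are mitochondrial IDs and 36 lie on chromosome 2. RNA came from whole seedlings, 10 days old, kept for 5 h in liquid medium with 50 µM antimycin A or with a mock treatment. The 5 lines were wild type Col-0 (WT), the mutants snrk1a, jmj15 and crf6 with the alleles snrk1a-2, jmj15-2 and crf6-2, and SnRK1aOX, which overexpresses SnRK1a. Promoter and number of transformants are not given for SnRK1aOX, and each mutant is a single allele. There were 3 libraries per group, 30 over the 10 groups, and the labels do not say whether these came from separate cultures, so that p-values measure the spread between samples, which may be technical.

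Plant mitochondria keep a small genome that encodes core subunits of the respiratory complexes and of ATP synthase, cytochrome c maturation factors, some ribosomal proteins, and ribosomal and transfer RNAs. Most other mitochondrial proteins, RNA polymerases and RNA processing factors included, are encoded in the nucleus and imported. Antimycin A blocks complex III at its cytochrome b subunit, which is itself a product of the mitochondrial genome. In Arabidopsis a large piece of mitochondrial DNA was also inserted near the centromere of chromosome 2, where the annotation gives nuclear IDs to the copied genes.

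The tables give a normalised read count per library, and a gene is listed only if it passed the authors' limits, which were an absolute log2 fold change of at least 1 and a q under 0.05. An ID that is absent from a table is therefore unlisted, and nothing can be said of its change. Depth per library is unknown. Whether the tables were normalised together is not given in the sources used here, so tests were made within a line. Values are given below in the order of replicates 1 to 3, and those under 0.0001 are written as 0. The number after antimycin A or mock, where a library was left out, is its replicate, and the p-value beside it is the adjusted p without it. A change is antimycin A minus mock in log2(value + 1) ± SE from a limma refit (n = 3 libraries per group), and its adjusted p follows Benjamini and Hochberg over the number of genes that the authors tested. The refit borrows its spread from listed genes alone, which were selected for a small p, so its SEs may be too small. "Rose" and "fell" are used of changes with an adjusted p under 0.05, and "listed higher" of the authors' calls alone. The seedlings were sampled in bulk, so more mitochondria per cell, more RNA per mitochondrion and a different mix of cells cannot be told apart.

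The chromosome 2 members lie in 1 stretch that is a near-exact copy of mitochondrial DNA, and the sequences below show how little separates both versions of a transcript. In the build TAIR10.1 the copy spans chr2:3239038-3509765, which is 270728 bases, and 99.59% of it aligned to the mitochondrial genome of 367808 bases in 17 blocks of at least 2000 bases with 99.56 to 99.97% identity. Every base of all 36 listed chromosome 2 genes aligned, with a median identity of 99.97% (99.72 to 100%), and 17 of them held no difference. A median of 99.31% of their 50-base stretches also occur in the mitochondrial genome without a mismatch (83.77 to 100%), and so do a median of 98.86% of their 100-base stretches (61.24 to 100%). The sources used here state neither the read length nor what was done with reads of several matches, so the genome of origin of a read cannot be told apart for these genes. A signal under an AT2G ID can thus be mitochondrial RNA, and a signal under an ATMG ID can be RNA of the copy. Shown are 91-base windows of the 4 chromosome 2 members that were listed in all 5 tables, 5′ to 3′ along the gene, with the base that differs in capitals.
AT2G07698, chromosome 2 copy: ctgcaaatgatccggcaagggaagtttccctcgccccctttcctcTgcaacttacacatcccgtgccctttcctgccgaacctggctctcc
AT2G07698, mitochondrial genome: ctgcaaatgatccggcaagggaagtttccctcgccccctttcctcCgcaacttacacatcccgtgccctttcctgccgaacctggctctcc
AT2G07638, chromosome 2 copy: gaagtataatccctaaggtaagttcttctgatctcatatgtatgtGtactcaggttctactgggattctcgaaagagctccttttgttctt
AT2G07638, mitochondrial genome: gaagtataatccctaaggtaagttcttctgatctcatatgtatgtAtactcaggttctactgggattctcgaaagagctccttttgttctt
AT2G07662, chromosome 2 copy: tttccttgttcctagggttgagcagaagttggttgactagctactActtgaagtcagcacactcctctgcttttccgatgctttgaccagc
AT2G07662, mitochondrial genome: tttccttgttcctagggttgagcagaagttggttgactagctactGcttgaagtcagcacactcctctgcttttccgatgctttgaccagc
AT2G07739, chromosome 2 copy: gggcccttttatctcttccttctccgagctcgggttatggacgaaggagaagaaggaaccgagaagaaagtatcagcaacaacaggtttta
AT2G07739, mitochondrial genome: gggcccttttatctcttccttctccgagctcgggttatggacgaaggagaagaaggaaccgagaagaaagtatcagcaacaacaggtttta
The windows of AT2G07698 are chr2:3361883-3361973 on the plus strand and mitochondrial positions 69153 to 69243 on the minus strand. Those of AT2G07638 are chr2:3377316-3377406 on the plus strand and mitochondrial positions 256378 to 256468 on the minus strand. Those of AT2G07662 are chr2:3498414-3498504 on the minus strand and mitochondrial positions 45518 to 45608 on the minus strand. Those of AT2G07739 are chr2:3495909-3495999 on the minus strand and mitochondrial positions 43013 to 43103 on the minus strand. AT2G07698 differs from the mitochondrial sequence at 1 of 2665 bases, C46T, where the mitochondrial base stands first, the position is counted from 1 at the 5′ end of the window and the base of the copy stands last. AT2G07638 differs at 2 of 1051 bases, of which the window holds A46G. AT2G07662 differs at 3 of 1708 bases, of which the window holds G46A. AT2G07739 has no difference in 888 bases. The window of AT2G07698 is coding sequence in the nuclear annotation. Plant mitochondrial transcripts undergo C-to-U editing, which writes the same kind of change as the difference in AT2G07698, and whether that base is edited was not tested.

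Listed chromosome 2 genes with these ID prefixes all lay within the copy. The annotation holds 200 chromosome 2 genes with these ID prefixes, 159 of them within the copy and 41 outside. All 36 listed genes are protein-coding genes within the copy, out of 93 such genes there, while 0 of the 41 genes outside were listed in any table. Only 7 of those 41 are protein-coding and 15 start over 400 kb from the start of the copy, and the tables list 9.22 to 17.3% of tested genes, so nothing is read from this 0. Of the 36, 26 are annotated as uncharacterized proteins. Overlap with a named mitochondrial gene, counted from any shared base of the longest aligned block, was found for 12. AT2G07698 (atp1), AT2G07671 (atp9), AT2G07687 (cox3), AT2G07718 (nad4) and AT2G07725 (rpl5) run in the same direction as that gene, and AT2G07655 (nad1) and AT2G07641 (nad7) in the opposite one. AT2G07662 runs opposite to the tRNA gene trnY. AT2G07739 (chr2:3495511-3496398) runs opposite to trnC, but it meets the copy of trnC (chr2:3495442-3495512) only at its edge. No strand is recorded for the libraries, so sense and antisense reads at such genes cannot be told apart.

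**Figure D1:**
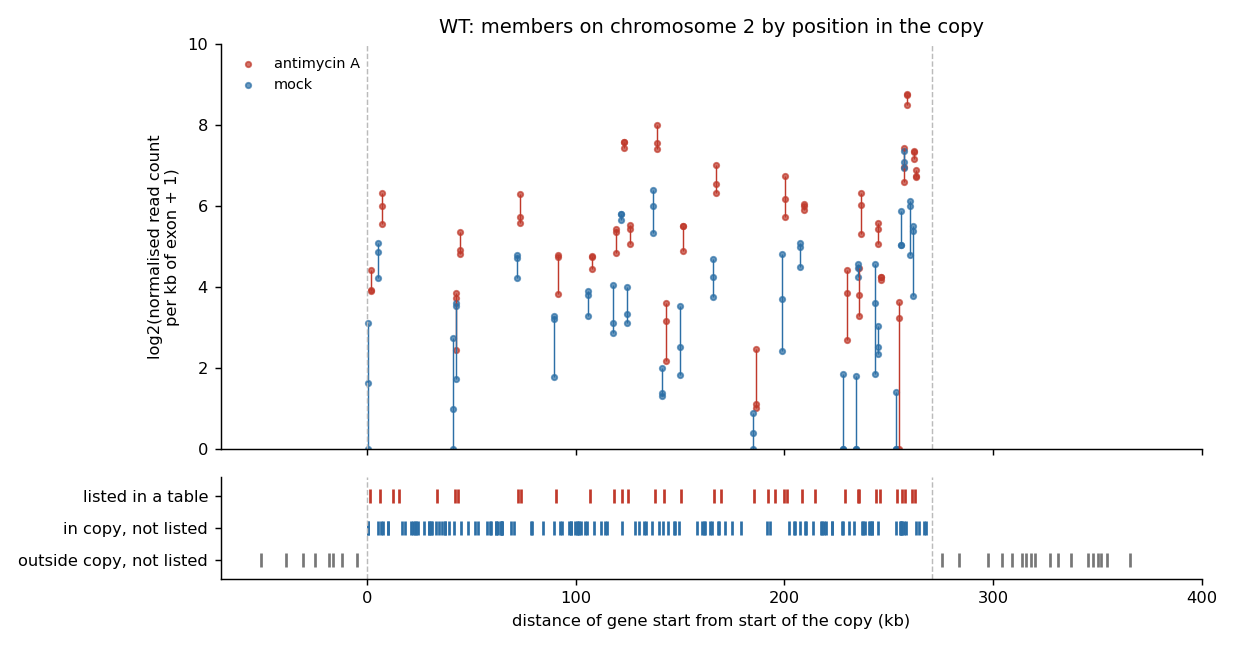
The upper panel plots the WT level of each chromosome 2 member listed in WT (27 genes) as log2(normalised read count per kb of exon + 1) against the distance of the gene start from the start of the copy in kb, with 1 point per library and a line over the 3 libraries of a group. The lower panel marks genes listed in a table, genes of the copy that were not listed, and 26 genes outside the copy (15 more lie over 400 kb from its start), and dashed lines mark both ends of the copy. Listed genes are spread over the whole copy and none lies beyond its ends.

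Per length, the WT levels along the copy covered a wide range in both treatments, as the map of levels by distance shows. With antimycin A the 27 members listed in WT had a median of 40.1 normalised reads per kb of exon, from 2.24 in AT2G07718 to 405 in AT2G07662. In mock the median was 11.9, from 0.398 in AT2G07718 to 140 in AT2G07662. AT2G07698, the copy of atp1 that encodes the alpha subunit of the F1 part of ATP synthase, stood at 186 ± 10.8 per kb with antimycin A and at 53.4 ± 3.11 in mock (SD, n = 3). AT2G07638 stood at 204 ± 45.3 and 62.0 ± 22.3 per kb. Neighbouring members could differ by far more than their replicate spread, for example AT2G07739 at 131 ± 38.4 per kb and AT2G07795 at 6.59 ± 5.90 per kb with antimycin A, whose starts lie at 256.5 and 254.2 kb of the copy. Mitochondrial IDs have no length in the annotation used here, so no level per length is given for them.

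Where the members were listed, they were higher with antimycin A in 231 of 232 cases. These cases are not separate observations, since many members recur between lines and overlapping genes may share reads. AT2G07669 and AT2G07678, which overlap on the plus strand, had the same mock values in jmj15 (5.12, 0 and 2.13). WT listed 64 members, of which 63 were higher and 1 lower, and 5.83% of the genes tested there were called higher and 8.84% lower. snrk1a listed 44, all higher, where 7.17% of tested genes were called higher and 10.1% lower. jmj15 listed 35, all higher, where the shares were 6.63% and 6.04%. crf6 listed 57, all higher, where they were 6.97% and 7.71%, and SnRK1aOX listed 32, all higher, where they were 5.55% and 3.67%. Among all genes listed, the share that was higher was 39.7% for WT, 41.5% for snrk1a, 52.3% for jmj15, 47.5% for crf6 and 60.2% for SnRK1aOX. The 37 mitochondrial and 27 chromosome 2 IDs of WT compare with 30 and 14 in snrk1a, 21 and 14 in jmj15, 35 and 22 in crf6 and 22 and 10 in SnRK1aOX. How many of the remaining mitochondrial genes were measured is unknown, so these counts are not shares of the mitochondrial genome.

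**Figure D2:**
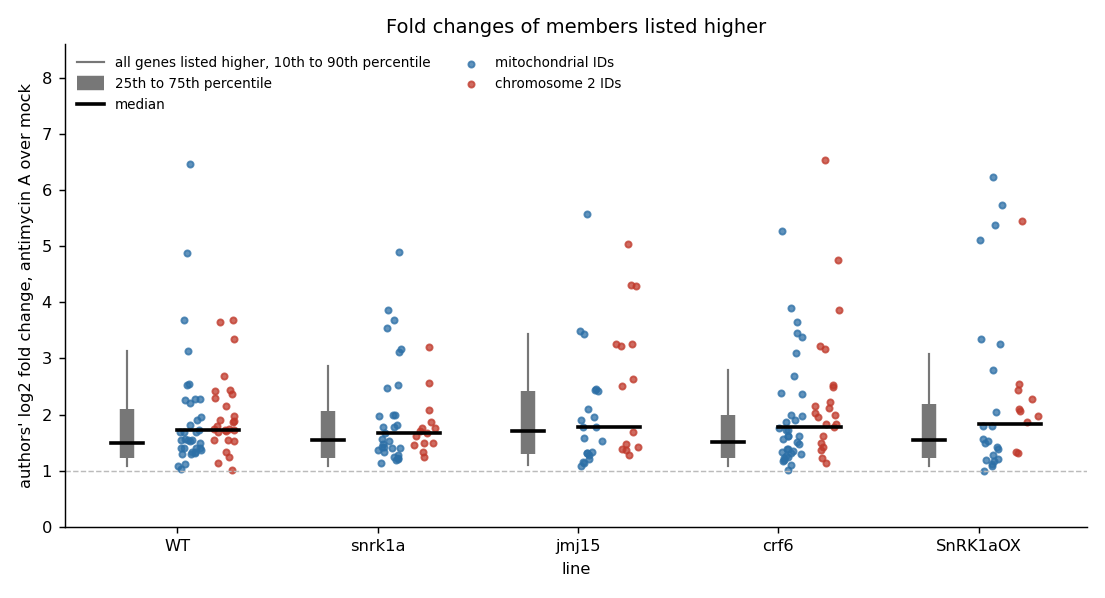
The log2 fold change from the authors' tables (antimycin A over mock) is plotted for the members listed higher in each line, with mitochondrial IDs in blue and chromosome 2 IDs in red, beside the 10th to 90th and 25th to 75th percentiles of all genes listed higher in grey. Black bars are medians, from 1.67 to 1.83 for the members and from 1.5 to 1.71 for all genes listed higher, and the dashed line is the authors' limit of 1.

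The typical size of these increases was near that of other genes that the authors called higher. The median log2 fold change in the authors' deposited table was 1.72 for the members listed higher in WT and 1.5 for all genes listed higher there. It was 1.67 and 1.55 in snrk1a, 1.78 and 1.71 in jmj15, 1.78 and 1.51 in crf6 and 1.83 and 1.55 in SnRK1aOX. Members on chromosome 2 and mitochondrial IDs had medians of 1.80 and 1.56 in WT and of 1.69 and 1.62 in snrk1a. The medians were 2.56 and 1.77 in jmj15, 2.01 and 1.62 in crf6 and 2.08 and 1.54 in SnRK1aOX. These medians cover listed members alone, whose fold changes start at the authors' limit. In 223 of 232 cases the lowest antimycin A library lay above the highest mock library, or for the 1 lower member the reverse. The groups did not overlap for 62 of 64 members in WT, where 95.0% of all listed genes had no overlap, 43 of 44 in snrk1a (96.4%), 34 of 35 in jmj15 (95.7%), 52 of 57 in crf6 (93.0%) and 32 of 32 in SnRK1aOX (95.1%). These shares are near those of all listed genes.

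The refit passed fewer members than the authors' test. An adjusted p under 0.05 was reached by 38 of 64 members in WT (59.4%), where 76.2% of all listed genes passed, and by 21 of 44 in snrk1a (47.7% beside 82.4%). In jmj15 it was reached by 19 of 35 members (54.3% beside 72.8%), in crf6 by 29 of 57 (50.9% beside 72.7%) and in SnRK1aOX by 18 of 32 (56.2% beside 66.9%). The share of members was thus below that of all listed genes in each line, a difference that was not tested. The mean over the 6 libraries was under 10 for 12 members in WT, 11 in snrk1a and 14 in jmj15. It was under 10 for 12 in crf6 and 9 in SnRK1aOX. Of all listed genes, 3150 of 3481 in WT and 3783 of 4115 in snrk1a had a mean of at least 10. So did 2743 of 3008 in jmj15, 3221 of 3491 in crf6 and 2013 of 2187 in SnRK1aOX. Refitted on such genes alone, 30 of 52 members passed in WT, 17 of 33 in snrk1a and 13 of 21 in jmj15. In crf6 24 of 45 passed and in SnRK1aOX 14 of 23. Of all such genes, 2498, 3222, 2089, 2417 and 1385 passed in that order. Why members passed less often was not tested.

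A group of 11 members was listed in all 5 tables, always higher and with no overlap of the groups in any of its 55 listings, and 51 of these passed the refit. Choosing members called in every table favours separate groups and passing, so these counts are a description. Of all listed genes, 93.0 to 96.4% by line had no overlap and 66.9 to 82.4% passed. The 11 are the mitochondrial IDs ATMG00090, ATMG00110, ATMG00660, ATMG01090, ATMG01170, ATMG01360 and ATMG01370 and the chromosome 2 genes AT2G07638, AT2G07662, AT2G07698 and AT2G07739. Another 14 members were listed in 4 tables, 15 in 3, 22 in 2 and 32 in 1. Summed over the 11, the value in WT was 3812, 3728 and 3511 with antimycin A and 1251, 1238 and 1269 in mock, a ratio of means of 2.94. The sums of jmj15 were 1973, 2404 and 1983 against 836, 759 and 795, a ratio of 2.66. The crf6 sums were 2266, 2443 and 2639 against 953, 882 and 758, a ratio of 2.83. These sums are a description, since the choice of members listed higher in every table fixed their direction and separation. In SnRK1aOX the sums were 2431, 2188 and 1907 against 819, 806 and 777, a ratio of 2.72.

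The libraries of snrk1a were more uneven. Its sums were 2393, 2249 and 3198 with antimycin A and 779, 1135 and 1061 in mock, a ratio of 2.64, and antimycin A replicate 3 was the highest library for 10 of the 11 members. Leaving out each library in turn gave ratios from 2.34 to 2.84 in snrk1a, 2.89 to 3.01 in WT, 2.48 to 2.75 in jmj15, 2.67 to 2.99 in crf6 and 2.56 to 2.88 in SnRK1aOX. snrk1a was also the line in which 9 genes of the plastid genome were listed higher. Their summed value was 1439, 3511 and 4285 with antimycin A and 916, 1642 and 1730 in mock, so the antimycin A and mock libraries of replicate 1 were lowest in their groups. No plastid gene was listed higher in the other 4 lines, 1 was listed lower in crf6, and the part of these libraries in the snrk1a results was not tested beyond leaving them out.

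**Figure D3:**
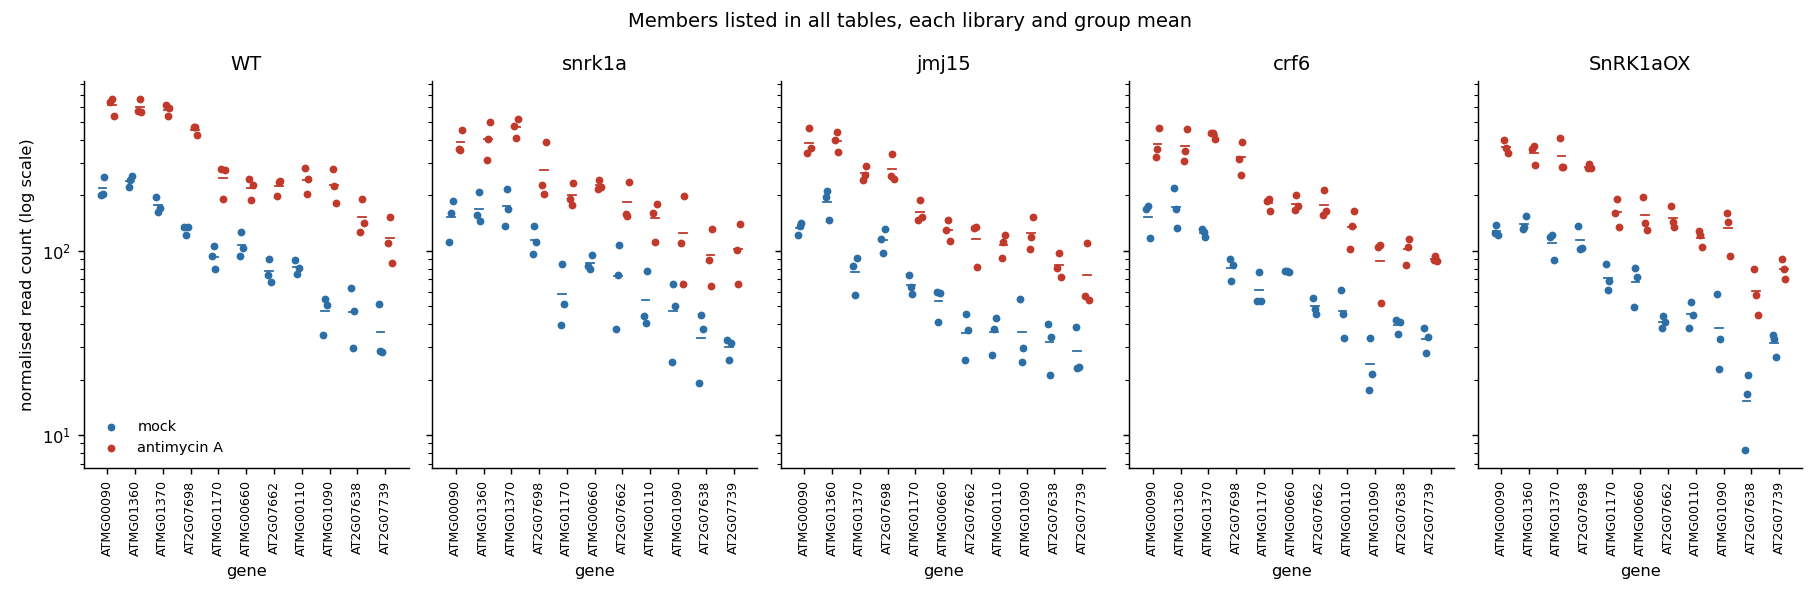
Normalised read counts (log scale) of the 11 members listed in all tables are plotted by line, with 1 point per library and a bar at the group mean, mock in blue and antimycin A in red. In every panel the antimycin A points of a gene lie above its mock points, and the closest groups are those of ATMG01090 in snrk1a.

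AT2G07698, the atp1 copy with 1 differing base in the window above, at chr2:3361463-3364127, rose in all 5 lines. In WT AT2G07698 stood at 469, 469 and 424 with antimycin A and at 135, 122 and 135 in mock. AT2G07698 in snrk1a read 228, 204 and 388 with antimycin A and 95.6, 136 and 112 in mock. WT replicates lay close together in both groups, while antimycin A replicate 3 of snrk1a stood clearly above the other two. AT2G07698 gave 255, 337 and 245 with antimycin A and 116, 96.8 and 131 in mock in jmj15. In crf6 AT2G07698 stood at 316, 256 and 391 with antimycin A and at 89.7, 68.7 and 84 in mock. AT2G07698 in SnRK1aOX read 281, 294 and 281 with antimycin A and 135, 102 and 104 in mock. The groups stayed apart in all 5 lines, and the replicates of SnRK1aOX with antimycin A differed little. For AT2G07698 the change in log2(value + 1) was 1.79 ± 0.19 in WT (adjusted p = 0.000432), 1.2 ± 0.31 in snrk1a (adjusted p = 0.0245), 1.27 ± 0.24 in jmj15 (adjusted p = 0.00954), 1.97 ± 0.25 in crf6 (adjusted p = 0.00134) and 1.33 ± 0.22 in SnRK1aOX (adjusted p = 0.0122). AT2G07698 no longer passed in snrk1a without antimycin A 1, antimycin A 3, mock 1 or mock 3 (adjusted p up to 0.104) and in SnRK1aOX without antimycin A 2, antimycin A 3 or mock 3 (adjusted p up to 0.0839).

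ATMG01090 rose in all lines but snrk1a. The note on its chromosome 2 counterpart AT2G07777 describes it as ATP synthase 9 mitochondrial. No named mitochondrial coding gene overlapped the longest aligned block of AT2G07777, which is 1275 bases of a gene of 2150, and the rest was not checked. The gene atp9 itself overlapped AT2G07671, the counterpart of ATMG01080. The name is therefore not used for ATMG01090 here. In WT ATMG01090 stood at 277, 223 and 180.4 with antimycin A and at 35, 54.7 and 50.9 in mock. ATMG01090 in snrk1a read 109.9, 66.2 and 199 with antimycin A and 25, 65.9 and 50.3 in mock. In snrk1a the lowest antimycin A library barely exceeded the highest mock library, and in WT the groups were far apart. ATMG01090 gave 102, 119 and 153 with antimycin A and 54.4, 24.9 and 29.8 in mock in jmj15. In crf6 ATMG01090 stood at 104, 107 and 52.2 with antimycin A and at 17.5, 33.7 and 21.3 in mock. ATMG01090 in SnRK1aOX read 159.6, 143 and 93.8 with antimycin A and 58.4, 22.8 and 33.3 in mock. In crf6 antimycin A replicate 3 was low for its group, and in none of these lines did a mock library reach the antimycin A range. For ATMG01090 the change in log2(value + 1) was 2.25 ± 0.31 in WT (adjusted p = 0.00115), 1.35 ± 0.49 in snrk1a (adjusted p = 0.128), 1.81 ± 0.38 in jmj15 (adjusted p = 0.0183), 1.8 ± 0.43 in crf6 (adjusted p = 0.0302) and 1.83 ± 0.42 in SnRK1aOX (adjusted p = 0.0446). ATMG01090 no longer passed in jmj15 for every library left out but mock 1 (adjusted p up to 0.0935), in crf6 without antimycin A 1, antimycin A 2, mock 1 or mock 3 (adjusted p up to 0.133) and in SnRK1aOX for every library left out but mock 1 (adjusted p up to 0.228).

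AT2G07739, annotated as a Ycf1 protein at chr2:3495511-3496398, is identical to the mitochondrial sequence over its whole length. It rose in all lines but jmj15. In WT AT2G07739 stood at 111, 153 and 85.7 with antimycin A and at 51.6, 28.4 and 28.1 in mock. AT2G07739 in snrk1a read 100.2, 65.8 and 139.7 with antimycin A and 32.9, 25.5 and 31.6 in mock. WT had 1 high mock library and snrk1a antimycin A replicates spread widely, with no overlap of the groups. AT2G07739 gave 56.8, 110.4 and 53.7 with antimycin A and 38.7, 23.2 and 23.4 in mock in jmj15. In crf6 AT2G07739 stood at 88.6, 93.9 and 87.5 with antimycin A and at 38.1, 27.8 and 33.9 in mock. AT2G07739 in SnRK1aOX read 89.7, 79.8 and 70.3 with antimycin A and 34.9, 33.3 and 26.7 in mock. In jmj15 a single antimycin A library was high, and in crf6 the antimycin A libraries lay close together. For AT2G07739 the change in log2(value + 1) was 1.68 ± 0.38 in WT (adjusted p = 0.0188), 1.67 ± 0.37 in snrk1a (adjusted p = 0.0123), 1.3 ± 0.43 in jmj15 (adjusted p = 0.136), 1.42 ± 0.30 in crf6 (adjusted p = 0.0179) and 1.31 ± 0.30 in SnRK1aOX (adjusted p = 0.0451). AT2G07739 no longer passed in WT without antimycin A 1, antimycin A 2, mock 2 or mock 3 (adjusted p up to 0.106), in snrk1a without antimycin A 3 or mock 2 (adjusted p up to 0.0592), in crf6 without antimycin A 1, antimycin A 2, antimycin A 3 or mock 3 (adjusted p up to 0.0708) and in SnRK1aOX whichever library was left out (adjusted p up to 0.183).

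AT2G07662, an uncharacterized gene at chr2:3497073-3498780, had the highest level per kb of exon among the chromosome 2 members in WT and rose in all 5 lines. In WT AT2G07662 stood at 198, 235 and 239 with antimycin A and at 74.1, 90.2 and 67.7 in mock. AT2G07662 in snrk1a read 158, 154 and 236 with antimycin A and 37.5, 74.2 and 107 in mock. The mock libraries of snrk1a ranged widely, and in both lines all antimycin A libraries lay above the mock libraries. AT2G07662 gave 133, 134 and 81.6 with antimycin A and 25.4, 45.2 and 37.1 in mock in jmj15. In crf6 AT2G07662 stood at 157, 213 and 164 with antimycin A and at 55.6, 48.4 and 45.4 in mock. AT2G07662 in SnRK1aOX read 175, 143 and 134 with antimycin A and 38, 44.1 and 41 in mock. The groups did not overlap in the other lines either. For AT2G07662 the change in log2(value + 1) was 1.53 ± 0.25 in WT (adjusted p = 0.00312), 1.41 ± 0.40 in snrk1a (adjusted p = 0.0447), 1.67 ± 0.37 in jmj15 (adjusted p = 0.0224), 1.81 ± 0.27 in crf6 (adjusted p = 0.00285) and 1.85 ± 0.27 in SnRK1aOX (adjusted p = 0.00717). AT2G07662 no longer passed in snrk1a for every library left out but mock 3 (adjusted p up to 0.196), in jmj15 without antimycin A 1, antimycin A 2, mock 1 or mock 3 (adjusted p up to 0.125) and in SnRK1aOX without antimycin A 2 (adjusted p = 0.053).

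AT2G07638, an uncharacterized gene at chr2:3377163-3378213, rose in all lines but jmj15. In WT AT2G07638 stood at 127, 191 and 141 with antimycin A and at 63, 29.5 and 47.1 in mock. AT2G07638 in snrk1a read 89.3, 64.4 and 131 with antimycin A and 19.2, 44.5 and 37.4 in mock. Replicates varied in both treatments in WT and snrk1a, and the groups remained apart. AT2G07638 gave 80.8, 97.6 and 72.4 with antimycin A and 40.2, 21.3 and 33.9 in mock in jmj15. In crf6 AT2G07638 stood at 83.7, 105 and 116 with antimycin A and at 41.9, 35.3 and 41.1 in mock. AT2G07638 in SnRK1aOX read 79.2, 57.7 and 44.8 with antimycin A and 8.27, 16.7 and 21.1 in mock. In SnRK1aOX the mock libraries included 1 low value, and antimycin A replicate 1 was the highest of the line. For AT2G07638 the change in log2(value + 1) was 1.74 ± 0.36 in WT (adjusted p = 0.0115), 1.49 ± 0.43 in snrk1a (adjusted p = 0.0467), 1.4 ± 0.37 in jmj15 (adjusted p = 0.0519), 1.34 ± 0.30 in crf6 (adjusted p = 0.0227) and 1.97 ± 0.45 in SnRK1aOX (adjusted p = 0.0443). AT2G07638 no longer passed in WT without antimycin A 2 (adjusted p = 0.075), in snrk1a for every library left out but antimycin A 2 (adjusted p up to 0.208), in crf6 for every library left out but antimycin A 1 (adjusted p up to 0.104) and in SnRK1aOX whichever library was left out (adjusted p up to 0.185).

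**Figure D4:**
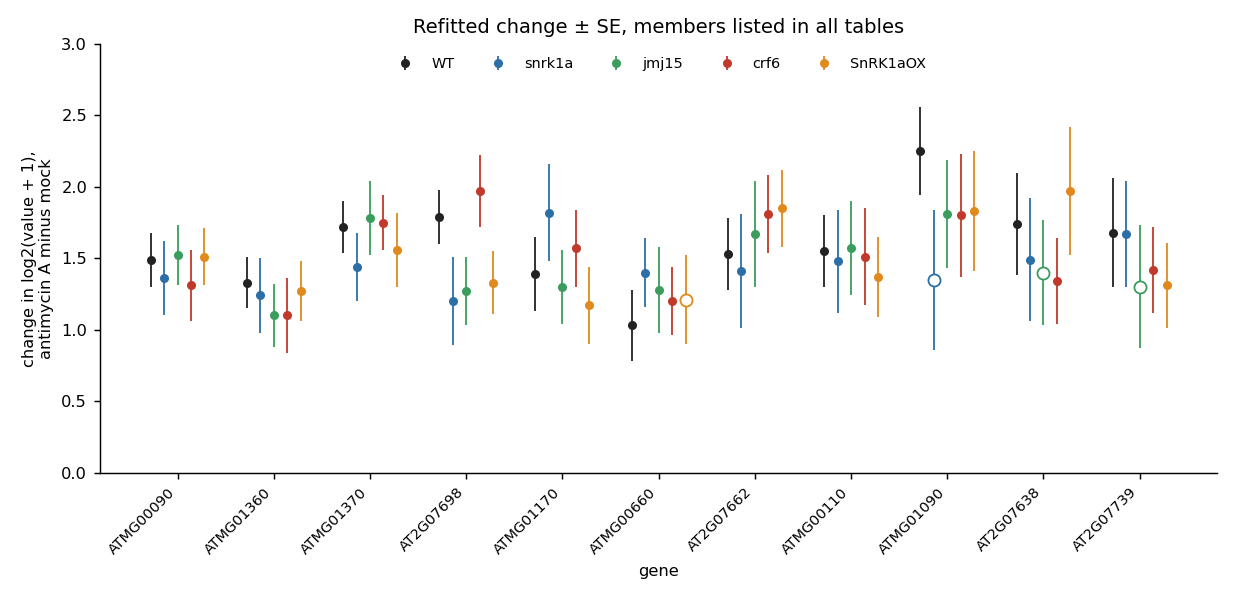
The refitted change in log2(value + 1), antimycin A minus mock, is plotted with its SE for the 11 members in each line. Filled points passed an adjusted p of 0.05 and the 4 open points did not (AT2G07638 and AT2G07739 in jmj15, ATMG00660 in SnRK1aOX and ATMG01090 in snrk1a), and all changes lie between 1.03 and 2.25.

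The 6 other mitochondrial IDs of the 11 carry no annotation in the sources used here. ATMG01370 rose in all 5 lines. In WT ATMG01370 stood at 613, 539 and 592 with antimycin A and at 195, 161 and 171 in mock. ATMG01370 in snrk1a read 474, 408 and 521 with antimycin A and 136, 217 and 168 in mock. Both lines showed separate groups, and mock replicate 2 of snrk1a was high for its group. ATMG01370 gave 242, 258 and 289 with antimycin A and 82.8, 57.2 and 91 in mock in jmj15. In crf6 ATMG01370 stood at 434, 435 and 406 with antimycin A and at 131, 127 and 119 in mock. ATMG01370 in SnRK1aOX read 409, 285 and 285 with antimycin A and 118, 121 and 89.6 in mock. The crf6 libraries were close together, and in SnRK1aOX antimycin A replicate 1 lay above the other two. For ATMG01370 the change in log2(value + 1) was 1.72 ± 0.18 in WT (adjusted p = 0.000414), 1.44 ± 0.24 in snrk1a (adjusted p = 0.00247), 1.78 ± 0.26 in jmj15 (adjusted p = 0.0025), 1.75 ± 0.19 in crf6 (adjusted p = 0.000578) and 1.56 ± 0.26 in SnRK1aOX (adjusted p = 0.0111). ATMG01370 no longer passed in SnRK1aOX without antimycin A 2 (adjusted p = 0.0621).

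ATMG00090 also rose in all 5 lines. In WT ATMG00090 stood at 638, 666 and 538 with antimycin A and at 199.6, 204 and 249.8 in mock. ATMG00090 in snrk1a read 357, 354 and 451 with antimycin A and 111, 161 and 185 in mock. Groups were separate in both lines. ATMG00090 gave 337, 462 and 359 with antimycin A and 122, 137 and 141 in mock in jmj15. In crf6 ATMG00090 stood at 322, 357 and 460.4 with antimycin A and at 168, 175 and 117 in mock. ATMG00090 in SnRK1aOX read 399.6, 360.3 and 339 with antimycin A and 124, 137 and 122 in mock. No mock library of jmj15, crf6 or SnRK1aOX came near the antimycin A values of its line. For ATMG00090 the change in log2(value + 1) was 1.49 ± 0.19 in WT (adjusted p = 0.000864), 1.36 ± 0.26 in snrk1a (adjusted p = 0.00497), 1.52 ± 0.21 in jmj15 (adjusted p = 0.00178), 1.31 ± 0.25 in crf6 (adjusted p = 0.0095) and 1.51 ± 0.20 in SnRK1aOX (adjusted p = 0.00557). ATMG00090 no longer passed in crf6 without antimycin A 3 (adjusted p = 0.0546).

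ATMG01360 rose in all 5 lines, by 1.1 to 1.33. In WT ATMG01360 stood at 576, 669 and 565 with antimycin A and at 221, 240.4 and 255 in mock. ATMG01360 in snrk1a read 311, 401 and 499 with antimycin A and 155, 207 and 144 in mock. The WT replicates were even, and those of snrk1a less so. ATMG01360 gave 399, 440.2 and 345 with antimycin A and 196, 211 and 146 in mock in jmj15. In crf6 ATMG01360 stood at 305, 349 and 458 with antimycin A and at 219, 167 and 134 in mock. ATMG01360 in SnRK1aOX read 356, 370.1 and 290.4 with antimycin A and 130.4, 134 and 155 in mock. The groups were separate in each of the other lines. For ATMG01360 the change in log2(value + 1) was 1.33 ± 0.18 in WT (adjusted p = 0.00102), 1.24 ± 0.26 in snrk1a (adjusted p = 0.00818), 1.1 ± 0.22 in jmj15 (adjusted p = 0.0121), 1.1 ± 0.26 in crf6 (adjusted p = 0.0285) and 1.27 ± 0.21 in SnRK1aOX (adjusted p = 0.0123). ATMG01360 no longer passed in snrk1a without mock 3 (adjusted p = 0.0519), in jmj15 without antimycin A 1 or antimycin A 2 (adjusted p up to 0.0659), in crf6 without antimycin A 2, antimycin A 3, mock 2 or mock 3 (adjusted p up to 0.135) and in SnRK1aOX without antimycin A 1 or antimycin A 2 (adjusted p up to 0.0879).

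ATMG01170 rose in all 5 lines. In WT ATMG01170 stood at 279, 189.9 and 274 with antimycin A and at 93.2, 105 and 79.9 in mock. ATMG01170 in snrk1a read 190.4, 178 and 234 with antimycin A and 39.5, 84.5 and 51.5 in mock. The mock libraries of snrk1a spread widely. ATMG01170 gave 147, 188 and 152 with antimycin A and 74, 63.8 and 58.4 in mock in jmj15. In crf6 ATMG01170 stood at 187, 191 and 165 with antimycin A and at 53.6, 76.5 and 53.4 in mock. ATMG01170 in SnRK1aOX read 161, 192 and 134 with antimycin A and 84.1, 61.2 and 68.6 in mock. All groups were separate. For ATMG01170 the change in log2(value + 1) was 1.39 ± 0.26 in WT (adjusted p = 0.0067), 1.82 ± 0.34 in snrk1a (adjusted p = 0.00425), 1.3 ± 0.26 in jmj15 (adjusted p = 0.0144), 1.57 ± 0.27 in crf6 (adjusted p = 0.00588) and 1.17 ± 0.27 in SnRK1aOX (adjusted p = 0.0498). ATMG01170 no longer passed in jmj15 without antimycin A 2 or mock 3 (adjusted p up to 0.068) and in SnRK1aOX whichever library was left out (adjusted p up to 0.251).

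ATMG00660 rose in all lines but SnRK1aOX. In WT ATMG00660 stood at 244, 189 and 227 with antimycin A and at 93.1, 127 and 104 in mock. ATMG00660 in snrk1a read 217, 243 and 221 with antimycin A and 82.1, 79.4 and 95 in mock. In WT 1 mock library was higher than the others, and the snrk1a groups were tight. ATMG00660 gave 129, 147 and 112 with antimycin A and 59.4, 41.1 and 59.3 in mock in jmj15. In crf6 ATMG00660 stood at 165, 199.96 and 174 with antimycin A and at 78, 77.2 and 76.7 in mock. ATMG00660 in SnRK1aOX read 195, 142 and 129.8 with antimycin A and 49.3, 80.8 and 71.5 in mock. The groups were separate in the remaining lines. For ATMG00660 the change in log2(value + 1) was 1.03 ± 0.25 in WT (adjusted p = 0.0245), 1.4 ± 0.24 in snrk1a (adjusted p = 0.00308), 1.28 ± 0.30 in jmj15 (adjusted p = 0.0301), 1.2 ± 0.24 in crf6 (adjusted p = 0.0118) and 1.21 ± 0.31 in SnRK1aOX (adjusted p = 0.0737). ATMG00660 no longer passed in WT for every library left out but mock 2 (adjusted p up to 0.124), in jmj15 whichever library was left out (adjusted p up to 0.126) and in crf6 without antimycin A 2 or mock 3 (adjusted p up to 0.0569).

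ATMG00110 rose in all 5 lines. In WT ATMG00110 stood at 279.8, 203 and 245 with antimycin A and at 89.4, 75.1 and 80.1 in mock. ATMG00110 in snrk1a read 159, 111 and 179 with antimycin A and 44.4, 40.3 and 77.9 in mock. WT mock values were even, and snrk1a mock values less so. ATMG00110 gave 91.4, 111 and 121 with antimycin A and 27.1, 37.8 and 43.3 in mock in jmj15. In crf6 ATMG00110 stood at 102, 135 and 164 with antimycin A and at 61.5, 45.6 and 33.6 in mock. ATMG00110 in SnRK1aOX read 127, 122 and 104 with antimycin A and 38, 52.5 and 44.8 in mock. Again no mock library reached an antimycin A library of its line. For ATMG00110 the change in log2(value + 1) was 1.55 ± 0.25 in WT (adjusted p = 0.00261), 1.48 ± 0.36 in snrk1a (adjusted p = 0.0179), 1.57 ± 0.33 in jmj15 (adjusted p = 0.017), 1.51 ± 0.34 in crf6 (adjusted p = 0.024) and 1.37 ± 0.28 in SnRK1aOX (adjusted p = 0.028). ATMG00110 no longer passed in snrk1a without antimycin A 1, antimycin A 3, mock 1 or mock 2 (adjusted p up to 0.084), in jmj15 without antimycin A 1, antimycin A 2, antimycin A 3 or mock 1 (adjusted p up to 0.079), in crf6 without antimycin A 2, antimycin A 3, mock 2 or mock 3 (adjusted p up to 0.113) and in SnRK1aOX for every library left out but mock 2 (adjusted p up to 0.146).

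Of the 51 calls that these 11 members had in the refit, 20 held when any single library was left out and 31 were lost at least once, as given with each gene. Signs did not turn in any of those fits. WT kept more of these calls than the other lines, with ATMG00090, ATMG00110, ATMG01090, ATMG01170, ATMG01360, ATMG01370, AT2G07662 and AT2G07698 passing whichever library was left out.

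Among members listed in 4 tables, ATMG00180 is annotated as a cytochrome C biogenesis protein and ATMG00290 as mitochondrial ribosomal protein S4. Cytochrome c biogenesis proteins attach heme to c-type cytochromes, and S4 belongs to the small subunit of the ribosome. ATMG00180 in WT read 44.6, 51.1 and 40.9 with antimycin A and 19, 23.3 and 21.7 in mock. ATMG00180 gave 21.8, 30.5 and 42.9 with antimycin A and 3.78, 16.1 and 13.1 in mock in snrk1a. WT replicates were even, and snrk1a mock replicate 1 was low. In jmj15 ATMG00180 stood at 24.2, 38.7 and 30.03 with antimycin A and at 5.67, 1.65 and 9.43 in mock. ATMG00180 in SnRK1aOX read 54.1, 27.9 and 30.9 with antimycin A and 6.19, 16.2 and 4.70 in mock. The groups of ATMG00180 were separate in all 4 lines, and it rose in jmj15 alone by the adjusted p. For ATMG00180 the refitted change was 1.06 ± 0.36 in WT (adjusted p = 0.124), 1.59 ± 0.57 in snrk1a (adjusted p = 0.128), 2.47 ± 0.60 in jmj15 (adjusted p = 0.0381) and 2.06 ± 0.53 in SnRK1aOX (adjusted p = 0.0779). ATMG00180 no longer passed in jmj15 for every library left out but mock 3 (adjusted p up to 0.156). ATMG00290 in WT read 16.2, 16.5 and 28.9 with antimycin A and 5.74, 5.07 and 1.83 in mock. ATMG00290 gave 11.8, 22.6 and 27.1 with antimycin A and 0, 1.73 and 5.13 in mock in snrk1a. Mock values were low in both lines. In jmj15 ATMG00290 stood at 17.7, 15.5 and 5.82 with antimycin A and at 3.21, 2.66 and 4.22 in mock. ATMG00290 in crf6 read 15.8, 14.6 and 16.8 with antimycin A and 0.973, 1.89 and 0 in mock. ATMG00290 had separate groups in each line and rose in WT, snrk1a and crf6. For ATMG00290 the refitted change was 2.1 ± 0.54 in WT (adjusted p = 0.0347), 2.99 ± 0.73 in snrk1a (adjusted p = 0.019), 1.57 ± 0.58 in jmj15 (adjusted p = 0.223) and 3.22 ± 0.55 in crf6 (adjusted p = 0.00532). ATMG00290 no longer passed in WT whichever library was left out (adjusted p up to 0.134) and in snrk1a without antimycin A 2, antimycin A 3, mock 1 or mock 2 (adjusted p up to 0.0871).

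AT2G07633, annotated as an NADH-plastoquinone oxidoreductase subunit at chr2:3329660-3331324, and ATMG00280, annotated with the catalytic domain of the Rubisco large chain, carry names of plastid proteins. AT2G07633 in WT read 38.5, 19.9 and 39.9 with antimycin A and 12.4, 13.2 and 3.64 in mock. AT2G07633 gave 15.1, 19 and 23.1 with antimycin A and 5.79, 1.58 and 10.1 in mock in snrk1a. Mock libraries were uneven in both lines. In jmj15 AT2G07633 stood at 17.7, 4.72 and 13.3 with antimycin A and at 3.47, 0 and 0.0169 in mock. AT2G07633 in crf6 read 20.7, 16.9 and 22.3 with antimycin A and 0, 0.935 and 0.898 in mock. The crf6 mock libraries were all under 1, so no fold is given for crf6. For AT2G07633 the refitted change was 1.75 ± 0.57 in WT (adjusted p = 0.104), 1.77 ± 0.61 in snrk1a (adjusted p = 0.104) and 2.8 ± 0.81 in jmj15 (adjusted p = 0.0807). In crf6 the adjusted p of AT2G07633 was 0.00153. ATMG00280 in WT read 15.2, 11 and 18.9 with antimycin A and 3.79, 1.03 and 7.63 in mock. ATMG00280 gave 12.6, 18.7 and 11.2 with antimycin A and 1.53, 0 and 6.24 in mock in jmj15. Mock libraries of ATMG00280 were uneven in both lines. In crf6 ATMG00280 stood at 4.92, 3.42 and 5.57 with antimycin A and at 0, 0 and 0.916 in mock. ATMG00280 in SnRK1aOX read 13.5, 7.82 and 6.44 with antimycin A and 0, 0 and 0 in mock. In crf6 and SnRK1aOX all mock libraries of ATMG00280 were under 1, while every antimycin A library was above 3. For ATMG00280 the refitted change was 1.84 ± 0.62 in WT (adjusted p = 0.119) and 2.5 ± 0.77 in jmj15 (adjusted p = 0.108). In crf6 the adjusted p of ATMG00280 was 0.0396. In SnRK1aOX the adjusted p of ATMG00280 was 0.0078. ATMG00280 no longer passed in crf6 for every library left out but mock 3 (adjusted p up to 0.146).

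Other mitochondrial IDs listed in 4 tables were ATMG00690, ATMG00080, ATMG01120 and ATMG01130. ATMG00690 in WT read 201, 154 and 184 with antimycin A and 80.9, 69 and 68.7 in mock. ATMG00690 gave 106, 159.6 and 105 with antimycin A and 43.5, 49.5 and 52.9 in mock in jmj15. Groups were well apart in both. In crf6 ATMG00690 stood at 119, 159 and 131 with antimycin A and at 60.5, 55.9 and 43.5 in mock. ATMG00690 in SnRK1aOX read 123, 92.2 and 120.1 with antimycin A and 42.1, 34.7 and 42 in mock. ATMG00690 rose in its 4 lines. For ATMG00690 the refitted change was 1.29 ± 0.26 in WT (adjusted p = 0.00949), 1.3 ± 0.31 in jmj15 (adjusted p = 0.0314), 1.34 ± 0.29 in crf6 (adjusted p = 0.0176) and 1.47 ± 0.29 in SnRK1aOX (adjusted p = 0.0225). ATMG00690 no longer passed in WT without antimycin A 1 (adjusted p = 0.059), in jmj15 whichever library was left out (adjusted p up to 0.129), in crf6 without antimycin A 2, antimycin A 3 or mock 3 (adjusted p up to 0.0819) and in SnRK1aOX whichever library was left out (adjusted p up to 0.102). ATMG00080 in WT read 167, 190.4 and 142 with antimycin A and 68.5, 69.97 and 50.7 in mock. ATMG00080 gave 101, 145 and 76 with antimycin A and 46, 56.8 and 42.5 in mock in jmj15. The antimycin A libraries of jmj15 were spread. In crf6 ATMG00080 stood at 105, 95.3 and 134 with antimycin A and at 46.8, 51.3 and 34.6 in mock. ATMG00080 in SnRK1aOX read 86.6, 108 and 91.5 with antimycin A and 36, 47.4 and 50.6 in mock. ATMG00080 rose in WT and crf6. For ATMG00080 the refitted change was 1.39 ± 0.28 in WT (adjusted p = 0.0101), 1.09 ± 0.34 in jmj15 (adjusted p = 0.117), 1.32 ± 0.31 in crf6 (adjusted p = 0.0293) and 1.09 ± 0.29 in SnRK1aOX (adjusted p = 0.0888). ATMG00080 no longer passed in WT without antimycin A 1 or antimycin A 2 (adjusted p up to 0.0633) and in crf6 for every library left out but mock 2 (adjusted p up to 0.131). ATMG01120 in WT read 121, 127 and 109 with antimycin A and 52.4, 55.8 and 34.7 in mock. ATMG01120 gave 55.6, 67.6 and 49.1 with antimycin A and 22.5, 21.5 and 30.6 in mock in jmj15. Groups were separate in both lines. In crf6 ATMG01120 stood at 55.1, 75.9 and 77.2 with antimycin A and at 19.5, 17.6 and 30.6 in mock. ATMG01120 in SnRK1aOX read 56.5, 101 and 79.8 with antimycin A and 20.6, 32.5 and 34.4 in mock. ATMG01120 rose in WT and crf6. For ATMG01120 the refitted change was 1.33 ± 0.31 in WT (adjusted p = 0.0226), 1.18 ± 0.36 in jmj15 (adjusted p = 0.105), 1.6 ± 0.37 in crf6 (adjusted p = 0.0266) and 1.4 ± 0.37 in SnRK1aOX (adjusted p = 0.0828). ATMG01120 no longer passed in WT without antimycin A 1, antimycin A 2, antimycin A 3 or mock 3 (adjusted p up to 0.104) and in crf6 without antimycin A 2, antimycin A 3, mock 1 or mock 2 (adjusted p up to 0.11). ATMG01130 in WT read 153, 122 and 142 with antimycin A and 34.3, 20.3 and 34.9 in mock. ATMG01130 gave 83.5, 41.9 and 110.1 with antimycin A and 36.7, 34.4 and 32.3 in mock in snrk1a. The snrk1a antimycin A libraries ranged widely, from just above mock upward. In crf6 ATMG01130 stood at 69.9, 77.1 and 79.5 with antimycin A and at 38.1, 26 and 27.6 in mock. ATMG01130 in SnRK1aOX read 80.4, 95.2 and 86.1 with antimycin A and 34.9, 40.7 and 44.9 in mock. ATMG01130 rose in WT and crf6. For ATMG01130 the refitted change was 2.21 ± 0.34 in WT (adjusted p = 0.00214), 1.06 ± 0.41 in snrk1a (adjusted p = 0.173), 1.3 ± 0.32 in crf6 (adjusted p = 0.0378) and 1.1 ± 0.28 in SnRK1aOX (adjusted p = 0.0736). ATMG01130 no longer passed in crf6 whichever library was left out (adjusted p up to 0.145), and it passed in snrk1a without antimycin A 2 (adjusted p = 0.0262).

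ATMG01220, ATMG00150 and ATMG01050 complete the mitochondrial IDs of that count. ATMG01220 in WT read 86.2, 89.3 and 90.7 with antimycin A and 26.5, 52.7 and 24.3 in mock. ATMG01220 gave 56.6, 35 and 58.5 with antimycin A and 20.3, 17.5 and 23.7 in mock in snrk1a. In WT 1 mock library was high for its group. In crf6 ATMG01220 stood at 54.1, 66.9 and 48.4 with antimycin A and at 30.3, 18.5 and 15.9 in mock. ATMG01220 in SnRK1aOX read 52.2, 43.4 and 63.7 with antimycin A and 7.25, 18.4 and 20.1 in mock. ATMG01220 had separate groups in each line and rose in WT. For ATMG01220 the refitted change was 1.42 ± 0.38 in WT (adjusted p = 0.0433), 1.22 ± 0.39 in snrk1a (adjusted p = 0.0741), 1.39 ± 0.39 in crf6 (adjusted p = 0.0621) and 1.83 ± 0.46 in SnRK1aOX (adjusted p = 0.0669). ATMG01220 no longer passed in WT for every library left out but mock 2 (adjusted p up to 0.151). ATMG00150 in WT read 31.4, 17.5 and 13.9 with antimycin A and 2.83, 4.06 and 3.77 in mock. ATMG00150 gave 11, 5.41 and 10.2 with antimycin A and 0, 1.81 and 0.786 in mock in snrk1a. Mock values were low in both lines. In jmj15 ATMG00150 stood at 10.6, 15.6 and 18.7 with antimycin A and at 0.756, 1.82 and 1.07 in mock. ATMG00150 in SnRK1aOX read 30.1, 15.6 and 9.71 with antimycin A and 1.04, 3.45 and 0.933 in mock. ATMG00150 rose in its 4 lines. For ATMG00150 the refitted change was 2.2 ± 0.50 in WT (adjusted p = 0.018), 2.47 ± 0.64 in snrk1a (adjusted p = 0.026), 2.84 ± 0.54 in jmj15 (adjusted p = 0.0101) and 2.77 ± 0.59 in SnRK1aOX (adjusted p = 0.0332). ATMG00150 no longer passed in WT without antimycin A 1, antimycin A 2 or mock 1 (adjusted p up to 0.0759), in snrk1a without antimycin A 1, antimycin A 3, mock 1 or mock 3 (adjusted p up to 0.0924) and in SnRK1aOX without antimycin A 1, antimycin A 2, mock 1 or mock 3 (adjusted p up to 0.129). ATMG01050 in WT read 5.11, 20.4 and 13 with antimycin A and 3.81, 4.05 and 1.85 in mock. ATMG01050 gave 12.6, 17.7 and 14.5 with antimycin A and 4.17, 1.75 and 2.14 in mock in jmj15. Antimycin A replicate 1 of WT was close to the mock range. In crf6 ATMG01050 stood at 5.88, 10.1 and 18.7 with antimycin A and at 5.89, 0 and 2.66 in mock. ATMG01050 in SnRK1aOX read 3.22, 13.2 and 14.8 with antimycin A and 1.03, 1.72 and 0 in mock. In crf6 the groups of ATMG01050 overlapped by a small margin, and it rose in jmj15. For ATMG01050 the refitted change was 1.57 ± 0.60 in WT (adjusted p = 0.205), 2.15 ± 0.52 in jmj15 (adjusted p = 0.0364), 1.97 ± 0.79 in crf6 (adjusted p = 0.259) and 2.48 ± 0.69 in SnRK1aOX (adjusted p = 0.104). ATMG01050 no longer passed in jmj15 for every library left out but mock 1 (adjusted p up to 0.114).

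The uncharacterized chromosome 2 genes AT2G07665 (chr2:3500130-3500612), AT2G07775 (chr2:3483035-3484062) and AT2G07678 (chr2:3281097-3283129) were also listed in 4 tables. The sequences of AT2G07665 and AT2G07775 do not differ from the mitochondrial genome. AT2G07665 in WT read 60.8, 54.5 and 61.8 with antimycin A and 23.8, 26.3 and 10.2 in mock. AT2G07665 gave 38.9, 39.7 and 63.4 with antimycin A and 17.4, 9.56 and 12.1 in mock in snrk1a. Groups were far apart in both lines. In crf6 AT2G07665 stood at 36.4, 35.8 and 37 with antimycin A and at 8.78, 2.66 and 12.7 in mock. AT2G07665 in SnRK1aOX read 49.98, 42.1 and 22.5 with antimycin A and 10.2, 3.96 and 6.67 in mock. AT2G07665 rose in its 4 lines. For AT2G07665 the refitted change was 1.61 ± 0.44 in WT (adjusted p = 0.0482), 1.79 ± 0.43 in snrk1a (adjusted p = 0.0175), 2.25 ± 0.55 in crf6 (adjusted p = 0.0341) and 2.31 ± 0.49 in SnRK1aOX (adjusted p = 0.0339). AT2G07665 no longer passed in WT whichever library was left out (adjusted p up to 0.164), in snrk1a without antimycin A 3, mock 2 or mock 3 (adjusted p up to 0.0824), in crf6 without antimycin A 1, antimycin A 2, antimycin A 3 or mock 1 (adjusted p up to 0.115) and in SnRK1aOX without antimycin A 1, antimycin A 2, mock 2 or mock 3 (adjusted p up to 0.164). AT2G07775 in WT read 31.4, 28.3 and 21.9 with antimycin A and 7.59, 15.2 and 1.76 in mock. AT2G07775 gave 9.39, 9.87 and 1.304 with antimycin A and 0.813, 0 and 1.05 in mock in jmj15. In jmj15 antimycin A replicate 3 was only just above the highest mock library. In crf6 AT2G07775 stood at 15.7, 41.8 and 12.7 with antimycin A and at 0.947, 1.80 and 9.20 in mock. AT2G07775 in SnRK1aOX read 19.8, 15.5 and 9.67 with antimycin A and 3.08, 4.29 and 0 in mock. AT2G07775 did not pass the refit in any of them. For AT2G07775 the refitted change was 1.94 ± 0.65 in WT (adjusted p = 0.121), 2.04 ± 0.78 in jmj15 (adjusted p = 0.252), 2.49 ± 0.75 in crf6 (adjusted p = 0.0847) and 2.47 ± 0.71 in SnRK1aOX (adjusted p = 0.114). AT2G07678 in WT read 27.3, 9.02 and 24.9 with antimycin A and 11.6, 2.04 and 0 in mock. AT2G07678 gave 7.71, 5.31 and 9.97 with antimycin A and 1.94, 1.79 and 0 in mock in snrk1a. The WT groups overlapped, since mock replicate 1 exceeded antimycin A replicate 2. In jmj15 AT2G07678 stood at 35.5, 20.2 and 15.8 with antimycin A and at 5.12, 0 and 2.13 in mock. AT2G07678 in crf6 read 22.7, 17.9 and 12.5 with antimycin A and 7.82, 3.65 and 7.18 in mock. AT2G07678 rose in jmj15. For AT2G07678 the refitted change was 2.53 ± 0.90 in WT (adjusted p = 0.15), 2.07 ± 0.65 in snrk1a (adjusted p = 0.0692), 3.13 ± 0.75 in jmj15 (adjusted p = 0.0334) and 1.39 ± 0.48 in crf6 (adjusted p = 0.15). AT2G07678 no longer passed in jmj15 for every library left out but mock 1 (adjusted p up to 0.172).

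Of the members listed in 3 tables, those first in mean count were ATMG00070, ATMG00160, ATMG00640, ATMG00520 and ATMG01200. ATMG00070 in snrk1a read 119, 139.7 and 206 with antimycin A and 54, 65.3 and 82.3 in mock. ATMG00070 gave 131, 116 and 129 with antimycin A and 47.7, 48.3 and 69 in mock in crf6. Both lines had separate groups. In SnRK1aOX ATMG00070 stood at 169, 165 and 155 with antimycin A and at 84.2, 75.4 and 84.9 in mock. ATMG00070 rose in its 3 lines. For ATMG00070 the refitted change was 1.17 ± 0.32 in snrk1a (adjusted p = 0.036), 1.19 ± 0.29 in crf6 (adjusted p = 0.0315) and 0.99 ± 0.23 in SnRK1aOX (adjusted p = 0.0499). ATMG00070 no longer passed in snrk1a for every library left out but antimycin A 1 (adjusted p up to 0.149), in crf6 for every library left out but mock 3 (adjusted p up to 0.116) and in SnRK1aOX whichever library was left out (adjusted p up to 0.209). ATMG00160 in WT read 168, 163 and 185 with antimycin A and 65.6, 69.99 and 74.5 in mock. ATMG00160 gave 83.1, 108 and 176 with antimycin A and 47.3, 83.7 and 37.4 in mock in snrk1a. In snrk1a the highest mock library exceeded the lowest antimycin A library by a small margin. In jmj15 ATMG00160 stood at 162, 150.2 and 137 with antimycin A and at 86.5, 61.9 and 56.3 in mock. ATMG00160 rose in WT and jmj15. For ATMG00160 the refitted change was 1.29 ± 0.25 in WT (adjusted p = 0.00786), 1.12 ± 0.41 in snrk1a (adjusted p = 0.133) and 1.14 ± 0.28 in jmj15 (adjusted p = 0.0387). ATMG00160 no longer passed in jmj15 for every library left out but mock 1 (adjusted p up to 0.16). ATMG00640 in WT read 162, 179 and 167 with antimycin A and 97.2, 66 and 71.5 in mock. ATMG00640 gave 124, 106 and 141 with antimycin A and 51.7, 76.6 and 35.3 in mock in crf6. Groups were separate in both. In SnRK1aOX ATMG00640 stood at 106, 125 and 96.8 with antimycin A and at 45.2, 49.9 and 48.6 in mock. ATMG00640 rose in WT and SnRK1aOX. For ATMG00640 the refitted change was 1.12 ± 0.27 in WT (adjusted p = 0.0233), 1.23 ± 0.35 in crf6 (adjusted p = 0.0687) and 1.17 ± 0.27 in SnRK1aOX (adjusted p = 0.047). ATMG00640 no longer passed in WT for every library left out but mock 1 (adjusted p up to 0.106) and in SnRK1aOX whichever library was left out (adjusted p up to 0.225). ATMG00520 in WT read 138, 190.3 and 148 with antimycin A and 44.6, 50.7 and 51.8 in mock. ATMG00520 gave 131, 114 and 117 with antimycin A and 40.5, 39.6 and 59.7 in mock in snrk1a. All antimycin A libraries were above all mock libraries. In jmj15 ATMG00520 stood at 101, 101 and 94.5 with antimycin A and at 36.3, 38.6 and 43.4 in mock. ATMG00520 rose in its 3 lines. For ATMG00520 the refitted change was 1.66 ± 0.28 in WT (adjusted p = 0.00381), 1.38 ± 0.31 in snrk1a (adjusted p = 0.0125) and 1.31 ± 0.29 in jmj15 (adjusted p = 0.0241). ATMG00520 no longer passed in snrk1a without antimycin A 1 or mock 2 (adjusted p up to 0.0533) and in jmj15 whichever library was left out (adjusted p up to 0.092). ATMG01200 in WT read 121, 69 and 118 with antimycin A and 20.7, 57.7 and 26.2 in mock. ATMG01200 gave 70.9, 68.6 and 80.9 with antimycin A and 17.4, 28.7 and 10 in mock in snrk1a. WT values were spread in both groups. In crf6 ATMG01200 stood at 92.6, 52.9 and 71.8 with antimycin A and at 22.5, 20.5 and 12.3 in mock. ATMG01200 rose in snrk1a and crf6. For ATMG01200 the refitted change was 1.62 ± 0.45 in WT (adjusted p = 0.0531), 2.03 ± 0.44 in snrk1a (adjusted p = 0.00966) and 1.93 ± 0.40 in crf6 (adjusted p = 0.0157). ATMG01200 no longer passed in crf6 without antimycin A 1, antimycin A 3 or mock 3 (adjusted p up to 0.0698).

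Besides AT2G07698, ATMG01090, ATMG00180 and AT2G07633, members annotated here as respiratory or ATP synthase subunits, or as their assembly factors, were listed in 1 to 3 tables. They are named for their annotation, after their values had been seen. Only 20 of the 58 mitochondrial IDs carry an annotation here, so other IDs, also those listed in more tables, may encode such subunits too. In WT ATMG01275 stood at 23.3, 21.8 and 17.9 with antimycin A and at 6.66, 8.11 and 4.66 in mock. ATMG01275 in crf6 read 17.7, 16.9 and 27.8 with antimycin A and 3.91, 2.78 and 2.65 in mock. ATMG01275 is annotated as NADH dehydrogenase 1A, a membrane subunit of complex I, and its change was 1.58 ± 0.44 in WT (adjusted p = 0.0556) and 2.39 ± 0.45 in crf6 (adjusted p = 0.00953). In snrk1a ATMG01320 stood at 9.34, 5.36 and 10.1 with antimycin A and at 1.95, 0 and 0 in mock. ATMG01320, NADH dehydrogenase 2B, is another complex I subunit and rose by 2.65 ± 0.67 (adjusted p = 0.0233). ATMG01320 no longer passed in snrk1a without antimycin A 1, antimycin A 3, mock 2 or mock 3 (adjusted p up to 0.0828). AT2G07687 in WT read 77, 52.4 and 46.8 with antimycin A and 26.7, 25.3 and 17.8 in mock. AT2G07687, subunit III of cytochrome c oxidase and a copy of cox3 without any difference, had separate groups and a change of 1.29 ± 0.38 (adjusted p = 0.0723). In crf6 ATMG00480 stood at 5.86, 27.5 and 19 with antimycin A and at 3.93, 0 and 0.852 in mock. ATMG00480, ATP synthase F0 subunit 8, had a change of 2.91 ± 0.78, just short of the threshold (adjusted p = 0.0508). ATMG00960 gave 12.2, 23.8 and 23.9 with antimycin A and 11.5, 3.06 and 3.71 in mock in WT. ATMG00960, a cytochrome c assembly protein, had a change of 1.7 ± 0.58 with 1 high mock library (adjusted p = 0.131). In WT AT2G07725 stood at 48.7, 46.8 and 43.8 with antimycin A and at 22.8, 16.3 and 24.6 in mock. AT2G07725 in crf6 read 25.6, 22.7 and 60.9 with antimycin A and 4.83, 17.9 and 8.85 in mock. AT2G07725, a ribosomal L5 family protein identical to the mitochondrial rpl5 region, did not pass the refit in either line (adjusted p = 0.113 in WT and 0.145 in crf6). In crf6 ATMG00590 stood at 30.6, 12.6 and 16.9 with antimycin A and at 3.90, 3.72 and 3.55 in mock. ATMG00590, annotated as a cytochrome b/b6 protein, rose by 2.06 ± 0.48 (adjusted p = 0.0278) and no longer passed in crf6 for every library left out but antimycin A 2 (adjusted p up to 0.0934). In WT AT2G07773 stood at 36.5, 25.2 and 24.9 with antimycin A and at 13.5, 0.0182 and 3.71 in mock. AT2G07718 in WT read 26.3, 6.73 and 5.97 with antimycin A and 0, 5.05 and 1.87 in mock. AT2G07773 and AT2G07718 carry the same kind of annotation, and their changes of 2.84 ± 0.87 and 2.13 ± 0.81 did not pass (adjusted p = 0.0797 and 0.195). The IDs annotated as apocytochrome b, ATMG00220 and its copy AT2G07727, were listed in no table.

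The nuclear annotation names a mitochondrial counterpart for 53 of the chromosome 2 genes with these ID prefixes within the copy. In 7 of these pairs both IDs were listed somewhere. In 9 pairs the chromosome 2 ID alone was listed, in 13 the mitochondrial ID alone and in 24 neither. For atp1, the values of AT2G07698 are given above, and its counterpart ATMG01190 is annotated as ATP synthase subunit 1. In snrk1a ATMG01190 stood at 3.41, 14.5 and 8.87 with antimycin A and at 0.956, 1.77 and 1.62 in mock. ATMG01190 in SnRK1aOX read 20.8, 12.3 and 11.8 with antimycin A and 1.02, 0 and 0 in mock. ATMG01190 rose in SnRK1aOX by 3.61 ± 0.52 (adjusted p = 0.00709) and missed the threshold in snrk1a at 1.86 ± 0.64 (adjusted p = 0.103), where it passed without antimycin A 1 (adjusted p = 0.0391). How reads that match both IDs were divided is not given in the sources used here, so the size of either value alone cannot be read as expression of that locus. In WT AT2G07798 stood at 59.8, 63 and 40.9 with antimycin A and at 11.3, 23.3 and 9.31 in mock. AT2G07798 in crf6 read 55.2, 31.5 and 28.3 with antimycin A and 11.7, 15 and 10.6 in mock. AT2G07798 rose in WT by 1.91 ± 0.46 (adjusted p = 0.025) beside 1.42 ± 0.38 for ATMG01220 there, and in crf6 the changes were 1.5 ± 0.42 and 1.39 ± 0.39. The WT call of AT2G07798 was lost without antimycin A 1, antimycin A 2, mock 1 or mock 3 (adjusted p up to 0.116). In WT AT2G07695 stood at 49.7, 49 and 39.9 with antimycin A and at 24.8, 26.4 and 16.8 in mock. ATMG01280 in WT read 42.6, 57.4 and 25.9 with antimycin A and 8.45, 20.3 and 14.1 in mock. For these 2 IDs, which carry a cytochrome c oxidase subunit II-like annotation, the changes in WT were 1.01 ± 0.38 and 1.5 ± 0.49, and neither passed (adjusted p = 0.179 and 0.104). In SnRK1aOX AT2G07671 stood at 10.3, 2.33 and 3.24 with antimycin A and at 0, 0 and 0 in mock. ATMG01080 in SnRK1aOX read 4.21, 12 and 3.26 with antimycin A and 0, 0 and 0 in mock. Both IDs of this pair are annotated as subunit 9 or C of ATP synthase, and their mock libraries were at or near 0 in SnRK1aOX, so no fold is given. AT2G07732 gave 4.08, 15 and 9.97 with antimycin A and 1.93, 0.0023 and 0 in mock in WT. This is the counterpart of ATMG00280, and both were separate between groups in WT. In snrk1a AT2G07835 stood at 41.2, 62.7 and 50.5 with antimycin A and at 10.6, 21.4 and 16.2 in mock. ATMG00400 in snrk1a read 3.66, 2.81 and 10.8 with antimycin A and 0, 0 and 0.848 in mock. AT2G07835 rose in snrk1a by 1.65 ± 0.42 (adjusted p = 0.0236) and in WT by 1.87 ± 0.50 (adjusted p = 0.0409). AT2G07835 no longer passed in WT whichever library was left out (adjusted p up to 0.161) and in snrk1a without antimycin A 2, antimycin A 3, mock 1 or mock 3 (adjusted p up to 0.0865). All 3 mock libraries of its counterpart ATMG00400 were under 1. AT2G07718 and its counterpart ATMG00590 shared no table.

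The single member listed lower was ATMG00860, and its values were small. In WT ATMG00860 stood at 0, 0 and 0 with antimycin A and at 1.86, 6.07 and 3.76 in mock. The groups did not overlap and the refitted change passed (adjusted p = 0.0389), with all antimycin A libraries at 0, so no fold is given. ATMG00860 no longer passed in WT for every library left out but mock 1 (adjusted p up to 0.0928). It was listed in no other line. Altogether 18 of the 232 listings had 1 group in which every library was under 1. These hold the largest of the authors' log2 fold changes among the members. Examples are 6.53 for AT2G07648 in crf6, 6.47 for ATMG01250 in WT and 6.23 for ATMG00280 in SnRK1aOX. In crf6 AT2G07648 stood at 11.8, 6.90 and 15.5 with antimycin A and at 0, 0 and 0 in mock. ATMG01250 in WT read 18.2, 6.68 and 7.97 with antimycin A and 0, 0 and 0 in mock. Such ratios rest on values at or near 0 in 1 group. In jmj15 ATMG01110 stood at 5.26, 7.70 and 4.51 with antimycin A and at 0, 0 and 0 in mock. ATMG01110, annotated as a mitovirus RNA-dependent RNA polymerase, was listed in jmj15 alone.

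Beyond the 30 members listed in the most tables, 64 members, 36 mitochondrial IDs and 28 on chromosome 2, made up 106 listings, 105 of them higher. Mean values of those higher ranged from 3.50 to 157 with antimycin A, with a median of 20.1, and from 0 to 54.1 in mock, with a median of 4.80. The groups did not overlap in 100 of these listings, and 34 passed the refit. Of all listed genes, 93.0 to 96.4% by line had no overlap and 66.9 to 82.4% passed.

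Members listed in a single table numbered 12 in WT, 10 in crf6, 5 in snrk1a, 3 in jmj15 and 2 in SnRK1aOX. Absence from the other tables does not show that these members differed between lines, and the difference was tested only for members listed both in a line and in WT.

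That test found no difference between lines past the threshold. The snrk1a and WT tables shared 30 members, jmj15 and WT 29, crf6 and WT 39, and SnRK1aOX and WT 28, and 0 of them passed an adjusted p of 0.05 in limma's interaction term in any line. At an unadjusted p under 0.05 there were 1, 0, 1 and 1. The share of all genes with values in both tables that passed was 0.0% for snrk1a, 2.24% for jmj15, 0.0% for crf6 and 0.131% for SnRK1aOX. The differences of the members, line minus WT in log2(value + 1), ran from -1.15 to 0.90 in snrk1a with a median of -0.08, and from -0.52 to 1.41 in jmj15 with a median of 0.02. They ran from -1.18 to 2.00 in crf6 with a median of 0.10, and from -1.45 to 1.45 in SnRK1aOX with a median of 0.06. The median SE of a difference was 0.61, 0.51, 0.59 and 0.49 in that order, which limits the size of a difference that could be seen. All 4 comparisons share the WT libraries. Each member tested had passed the authors' limits both in its line and in WT, so a member that lost its response was left out. That choice favours small differences, and the small medians are not read as equal responses.

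**Figure D5:**
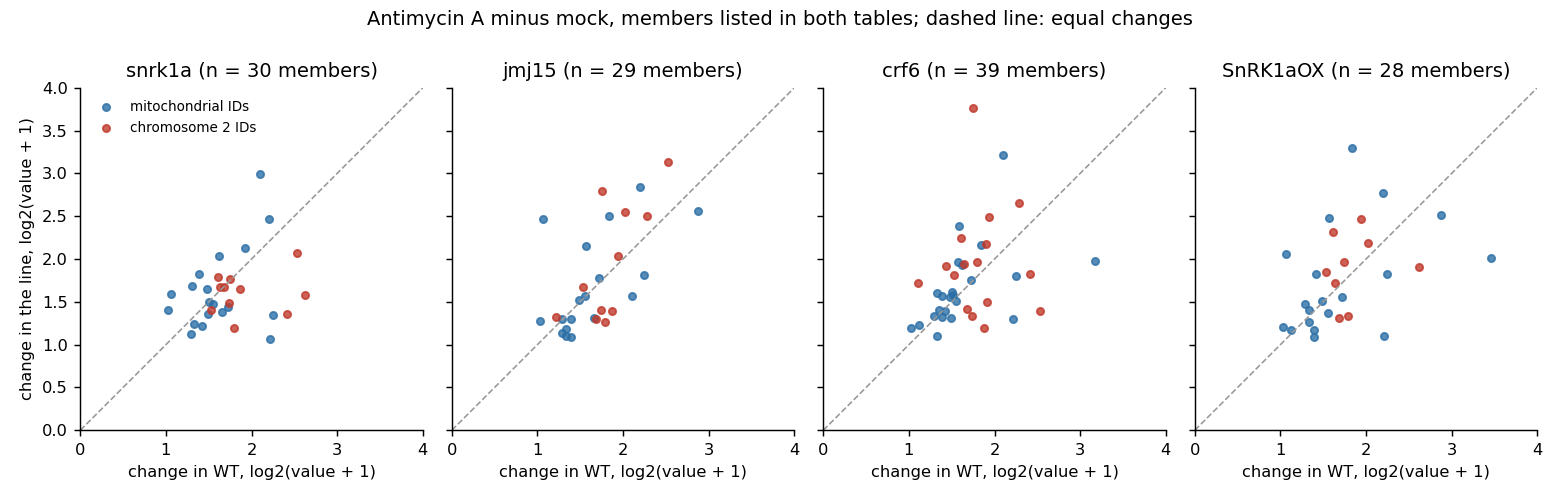
Each panel plots the change in a line against the change in WT, in log2(value + 1), for the members listed in both tables, with mitochondrial IDs in blue and chromosome 2 IDs in red. Points lie on both sides of the dashed line of equal changes in every panel, and the medians of the differences are between -0.08 and 0.10.

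ATMG01130 had the smallest p of the members in 2 lines. Its change was 2.21 ± 0.34 in WT and 1.06 ± 0.41 in snrk1a, a difference of -1.15 ± 0.54 (adjusted p = 0.653). With single libraries left out, its change in snrk1a ran from 0.77 to 1.45. In SnRK1aOX the difference was -1.11 ± 0.40 (adjusted p = 0.384), and in crf6 it was -0.92 with an adjusted p of 0.996. ATMG01130 was thus lower in its change than in WT in the 3 other lines that listed it, without passing. In jmj15 the smallest p belonged to ATMG00180, with a difference of 1.41 ± 0.69 (adjusted p = 0.383). In crf6 it belonged to AT2G07633, with a difference of 2.00 ± 0.78 (adjusted p = 0.996), a gene whose mock values in crf6 were all under 1. For AT2G07698 the difference from WT was -0.59 ± 0.37 for snrk1a, -0.52 ± 0.29 for jmj15, 0.17 ± 0.30 for crf6 and -0.46 ± 0.26 for SnRK1aOX, none of which passed (adjusted p from 0.467 to 0.996).

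Lists of nuclear genes for mitochondrial functions are too short to read a count of 0 as a result, where the share of tested genes listed was 14.7% for WT, 17.3% for snrk1a, 12.7% for jmj15, 14.7% for crf6 and 9.22% for SnRK1aOX. Of 15 nuclear factors of mitochondrial transcription, RNA decay, splicing and editing, among them the RNA polymerases RPOTm and RPOTmp, 0 were listed in any line. Of 8 factors of mitochondrial DNA maintenance, among them the polymerases POLIA and POLIB and the helicase TWINKLE, 0 were listed as well. Of 17 nuclear-encoded subunits of complex III and forms of cytochrome c, AT5G25450 was listed in WT and snrk1a and none in the other lines. AT5G25450 stood at a mean of 252 with antimycin A and 121 in mock in WT, a change of 1.24 ± 0.40 (adjusted p = 0.101). In snrk1a it stood at 346 and 155 and rose by 1.15 ± 0.23 (adjusted p = 0.00647). An unlisted gene may have been below the authors' limits or not measured.

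Markers of tissues were read beside these results. Of 5 shoot markers of photosynthesis 0 were listed in any line, so the tables hold no value for them. Of 5 root markers, 4 were listed lower in each of WT, snrk1a and crf6 and 3 in each of jmj15 and SnRK1aOX, and RHD2, a root hair oxidase, was listed higher in snrk1a and jmj15. The listed root markers summed to 362 to 420 with antimycin A and 1029 to 1958 in mock in WT, and to 907 to 1197 against 1316 to 2057 in snrk1a. They summed to 625 to 780 against 616 to 1273 in jmj15, to 314 to 372 against 1201 to 1746 in crf6 and to 172 to 425 against 390 to 1228 in SnRK1aOX. In the refit all 4 listed lower passed in WT, in snrk1a and in crf6, while 1 of 3 passed in jmj15 and 0 of 3 in SnRK1aOX, and RHD2 passed in both of its lines. PER64, a peroxidase of the endodermis, fell by 2.90 ± 0.27 in WT (adjusted p = 0.000254), and its change in SnRK1aOX was -2.45 ± 0.70 (adjusted p = 0.116). The sums of snrk1a and jmj15 include RHD2, which went the other way from the markers listed lower. RHD2 had means of 852 with antimycin A and 349 in mock in snrk1a, and of 507 and 228 in jmj15. Sums with antimycin A and mock overlapped in SnRK1aOX and in jmj15, where RHD2 made up most of the antimycin A sum. They were separate in the other lines. The markers summed differ by line, so the sums do not compare between lines. The part of tissue makeup in these values was not tested.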

How the data were processed

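RNA-seq of 30 Arabidopsis seedling libraries was used, 3 for each of 5 lines with antimycin A or mock. Per the submitters' processing notes, Bowtie 0.12.2 aligned the reads and TAIR10 was the build. Which tools counted, normalised and tested is not given in the sources used here. Each of the 5 deposited tables holds a signal per gene and library, a normalised read count made by the authors. The deposited log2 fold changes, p-values and q-values are the authors' own, as are the −log10 values that some tables carry per the file headers. Listed genes have an absolute log2 fold change of at least 1 and a q under 0.05. Ranks, p-values and q-values imply that the authors tested 23742 genes for WT, 23834 for snrk1a, 23758 for jmj15, 23783 for crf6 and 23728 for SnRK1aOX. Depth is unknown, since values are not whole and reads could not be recovered from them, and no interval for counting error is given. Columns were matched to samples by name. Those named kin10-2 were taken as snrk1a and those named KIN10V17 as SnRK1aOX, KIN10 being another name of SnRK1a, and no value column was left over.

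The planned test depended on what the tables held. Because they list selected genes only, the authors' calls give the counts of members, and limma 3.58.1 in R 4.3.3 gives each change with its SE, fitted with a trend on log2(value + 1) over the whole table of a line. Its p-values were adjusted by Benjamini-Hochberg over the implied number of genes tested. A fold change on this scale understates the change of genes with low values. Differences between lines are limma's interaction term over genes listed in both tables. The fit was also run on simulated counts in which most genes had no change. Those genes were not selected for a small p, so that run does not test the refit on listed genes. Values under 0.0001 are written as 0.

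The copy on chromosome 2 was located with blastn 2.17.0 (blocks of at least 2000 bases) in TAIR10.1 of RefSeq, whose mitochondrial record may differ from that of the authors' build. Sequences and coordinates are from TAIR10.1. Annotation of 20 of the 58 mitochondrial IDs came from notes on chromosome 2 genes, and the others carry none here. Values are given in every library for up to 30 members, first those listed in most tables and then by mean value. Members named for a subunit annotation beyond these 30 were chosen after their values had been seen. The members and gene lists were chosen with earlier results of these data known. Alternatives were pseudocounts of 0.5 and 10, a mean value of at least 10, no trend, adjustment over listed genes only, a replicate block and leaving out each library.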

Additional observations from a re-analysis of the deposited data

How the results depend on the processing

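The number of members called depended on the test. The authors' calls numbered 64 for WT, 44 for snrk1a, 35 for jmj15, 57 for crf6 and 32 for SnRK1aOX, and the limma refit passed 38, 21, 19, 29 and 18 of these. Adjusted over listed genes only, it passed 63, 44, 34, 56 and 31. Other pseudocounts, the minimum mean of 10 and the fit without trend kept each count within 1.5 times that of the refit. Leaving out each library in turn gave 15 to 28 members for WT, 7 to 18 for snrk1a, 6 to 13 for jmj15, 12 to 22 for crf6 and 3 to 10 for SnRK1aOX, fits that have fewer samples. Over all such fits a call was lost in 369 cases and gained in 31, and most gains are not given with the genes. With the replicate number as a block the refit passed 27, 18, 10, 11 and 5 members in the same order of lines. Libraries with the same number did not deviate together (r from -0.315 to 0.0969 over 15 pairs), and the refit used no pairing. Whether libraries with the same number were grown or handled together is not known. Of the 232 changes, 223 kept their side of the threshold with a pseudocount of 0.5, 204 with 10, 195 without trend and 176 with the block. No change turned its sign under any of these alternatives. Among members listed both in a line and in WT, the count that differed was 0 under every alternative run. Depth is unknown, so the limit it sets on members with values near 0 cannot be given.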
